A study of Mus musculus with 6 samples.

Results

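The CREB family of Crebl2 was followed in RNA sequencing libraries of Hepa1-6 cells, a mouse hepatoma line. The 10 genes were chosen by name, as Crebl2 itself and 9 relatives or partners, out of 38828 genes with counted transcripts. They are Crebl2, Crebrf, Crebzf, Creb1, Creb3, Creb3l2, Creb3l3, Atf1, Crem and Crtc2. In 3 libraries, called Crebl2 siRNA here, the cells were given siRNA against Crebl2. In the other 3, called Luc siRNA, they were given control siRNA against Renilla luciferase, a sequence foreign to mouse cells. The cells of all 6 libraries were transfected with Lipofectamine RNAiMAX for 3 days and grown in high-glucose DMEM with serum, so the controls carry the transfection too. The labels name 1 cell line, do not say whether libraries came from separate cultures and give neither the number of siRNAs nor their sequences. The p-values therefore measure only how these 6 samples vary, and that variation may be technical. The question put to the data was whether relatives of the silenced gene were raised in its place.

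CREB family proteins are basic leucine zipper (bZIP) transcription factors that bind DNA as pairs, classically at the cAMP response element (CRE). In hepatocytes glucagon raises cAMP, protein kinase A phosphorylates Creb1, the coactivator Crtc2 enters the nucleus, and fasting genes such as those of gluconeogenesis are switched on. The Creb3 branch sits in the endoplasmic reticulum membrane and is released by proteolysis in the Golgi. In Drosophila the relative of Crebl2, REPTOR-BP, works with REPTOR, the relative of Crebrf, downstream of the growth kinase complex TORC1.

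Silencing left 26.9% of Crebl2 mRNA, and none of the 7 relatives tested was raised. Of the 10 members, 8 held enough counts to be tested. By edgeR's quasi-likelihood test over 11616 genes, at an adjusted p under 0.05, 3 members fell, namely Crebl2, Crebzf and Creb3l2, 5 were not called and 0 rose. Over all genes tested 38.9% were called, 20.1% lowered and 18.8% raised, so 2 lowered relatives among 7 tested is a share near that background. Read per transcript, 8 transcripts of the members were tested among 12542, 3 fell and 0 rose by edgeR (0 also at an unadjusted p under 0.05), against 37.4% called, 19.3% lowered and 18% raised over all transcripts tested. These 8 transcripts held 99.47 to 100% of the counts of their genes, so this reading nearly repeats the gene test. Reads shared by transcripts were apparently not counted, so that share does not show which transcripts the cells made. Other transcripts of Crebl2, Creb1 and Creb3 have few or no bases of their own, and changes in them could go unseen. The median log2 fold change of the 7 relatives was -0.12, against 0.0052 over all genes tested. At an unadjusted p under 0.05, 0 of the 7 relatives rose by edgeR, DESeq2 or limma-voom. With each library scaled by its total count alone, 58.8% of all calls were raised, against 48.3% under the scaling used here, and the count of raised relatives was still 0.

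**Figure D1:**
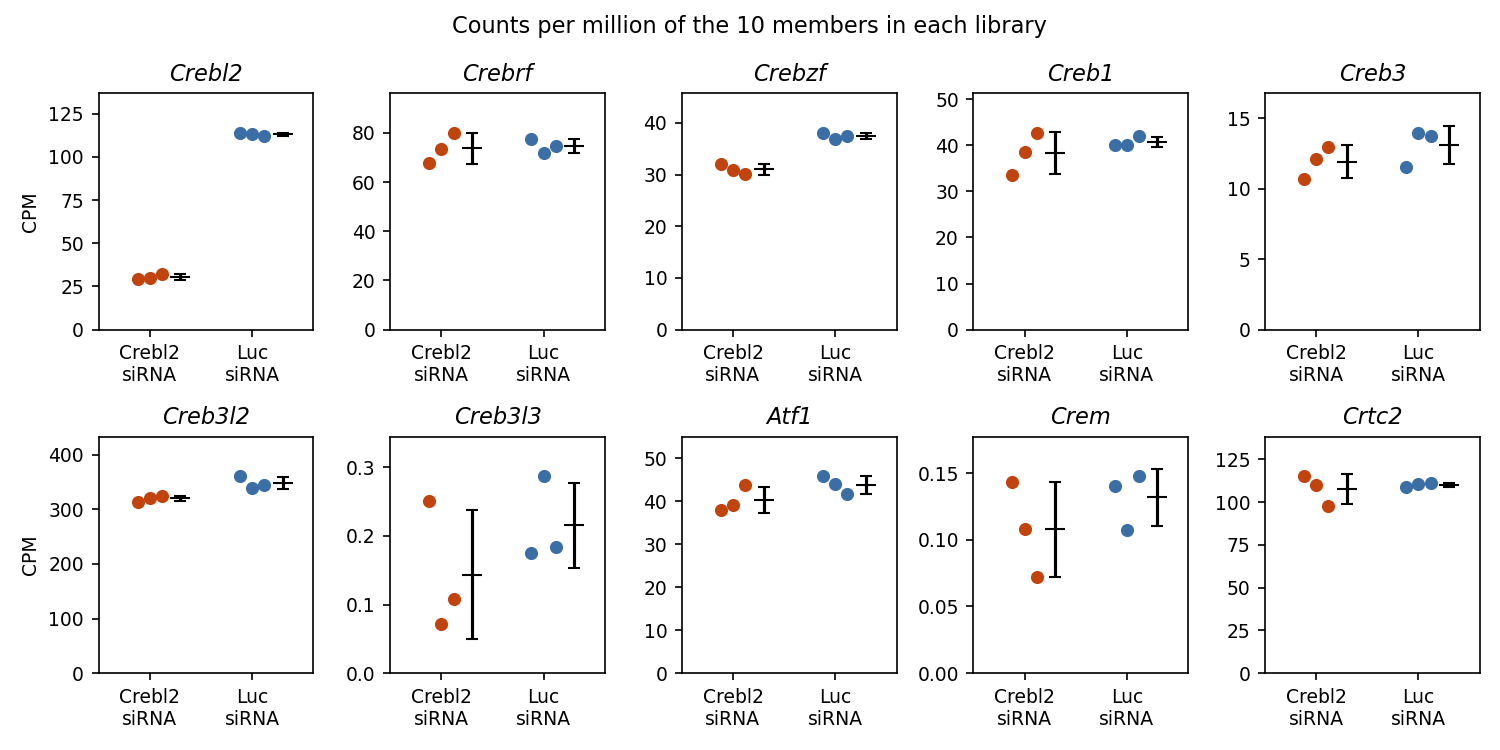
CPM, counts scaled to the TMM-adjusted library total, of each member in every library. Points are libraries, and the bar beside them is the mean with its SD (n = 3 per group). Crebl2 siRNA is at the left of each panel and Luc siRNA at the right. Crebl2 lies at 29.1 to 32.3 CPM after its siRNA, against 112 to 114 CPM with Luc siRNA, whereas the relatives differ little between groups.

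Crebl2 encodes a small bZIP protein and was checked first, as the gene targeted. It lies on chromosome 6 (134830154 to 134858931, GRCm38, plus strand). Its level was 29.1, 29.8 and 32.3 CPM (read counts scaled to the TMM-adjusted library total) in the Crebl2 siRNA libraries, against 114, 113 and 112 CPM in the Luc siRNA libraries. The groups lay far apart, with a log2 fold change of -1.90 (SE 0.0582, 95% interval -2.02 to -1.77; edgeR adjusted p = 2.83e-12). An exact two-sided permutation of the 6 libraries returned p = 0.1, which is the least that 3 against 3 can reach. All of its counts fell on Crebl2-201, whose 3629 bases include 3017 shared with no other counted transcript, while the second annotated transcript has 0 bases of its own and could not be read.

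Crebrf, the partner by its Drosophila relative and known in mammals as a regulator of Creb3, was not called. This gene on chromosome 17 (26715650 to 26776635) had 67.6, 73.6 and 80.0 CPM in the Crebl2 siRNA libraries and 77.4, 71.8 and 74.8 CPM in the Luc siRNA libraries. The groups overlapped fully, since the Luc siRNA libraries lay inside the range of the Crebl2 siRNA libraries. The log2 fold change was -0.02 (SE 0.0637; edgeR adjusted p = 0.858), and its 95% interval, -0.15 to 0.12, reaches at most 108% of the Luc siRNA level.

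Crebzf, a bZIP protein that binds the host cell factor Hcfc1, was the relative with the lowest p. This gene on chromosome 7 (90442729 to 90447994) has 1 counted transcript, with 3376 bases of its own. It measured 32.1, 31.0 and 30.0 CPM in the Crebl2 siRNA libraries, against 38.1, 37.0 and 37.4 CPM in the Luc siRNA libraries. Every Crebl2 siRNA library was below every Luc siRNA library, as also held, in one direction or the other, for 48.8% of all tested genes. The log2 fold change was -0.27 (SE 0.0618, 95% interval -0.40 to -0.14; edgeR adjusted p = 0.00219), which is 82.8% of the Luc siRNA level.

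Creb3l2, an endoplasmic reticulum factor that in mouse cartilage drives the secretory coat genes Sec23a and Sec24d, showed a smaller difference. It lies on the minus strand of chromosome 6 (37327255 to 37442146). Its level was 314, 321 and 324 CPM in the Crebl2 siRNA libraries and 360, 339 and 345 CPM in the Luc siRNA libraries. These did not overlap, and the log2 fold change was -0.12 (SE 0.0465, 95% interval -0.22 to -0.02; edgeR adjusted p = 0.0488). That call rests on the settings, since it held in 5 of 16 alternatives and was lost in 11, with adjusted p from 0.0302 to 0.223. It was lost without Crebl2 siRNA replicate 1 (adjusted p = 0.111) or 2 (0.135) and without Luc siRNA replicate 1 (0.158), 2 (0.0635) or 3 (0.114).

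**Figure D2:**
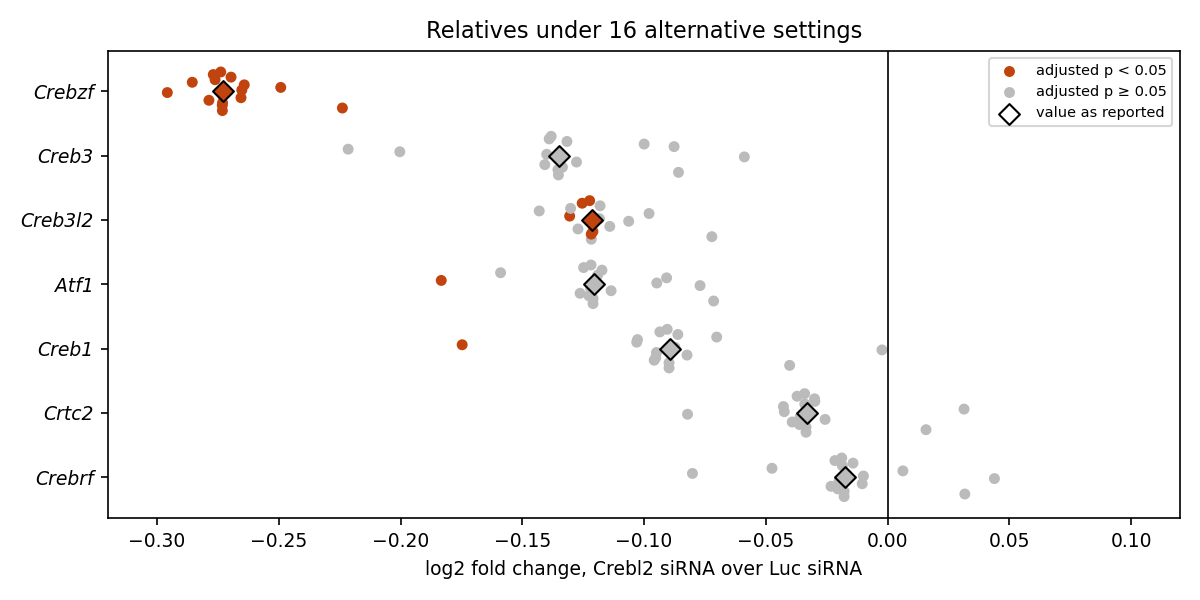
Log2 fold change (Crebl2 siRNA over Luc siRNA) of the 7 tested relatives under the reported setting and 16 alternatives, each point a setting, marked by whether the adjusted p is under 0.05. Crebzf is called at every setting, Creb3l2 at some, Creb1 and Atf1 at 1 each (without Crebl2 siRNA replicate 3), and Crebrf and Crtc2 lie on both sides of 0.

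Creb3 itself, also called Luman, is the founding factor of the membrane branch. The gene on chromosome 4 (43562332 to 43567060) had 10.7, 12.1 and 13.0 CPM in the Crebl2 siRNA libraries, against 11.5, 14.0 and 13.8 CPM in the Luc siRNA libraries, and the groups overlapped. The log2 fold change was -0.13 (95% interval -0.35 to 0.08; edgeR adjusted p = 0.318). Only 520 of the 1884 bases of its main transcript are its own, and it overlaps Tln1 and Gba2, which lie on the other strand and held 204154 and 8270 counts. The sources used here do not say whether counting used strand, so its value is uncertain.

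Creb3l3 (CREBH), the liver and gut member of that branch that drives apolipoprotein and Fgf21 genes in fasting, was hardly counted. It has 1 transcript, with all 2294 bases its own, on chromosome 10 (81084324 to 81098874). The libraries held 7, 2 and 3 counts with Crebl2 siRNA and 5, 8 and 5 counts with Luc siRNA. The ratio of the summed counts, 12 to 18, was 0.668 (95% exact binomial interval 0.293 to 1.47, counting error only), which leaves a difference undetectable at this depth.

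Creb1, the prototype cAMP-responsive factor, and Atf1, its close paralog and dimer partner, were somewhat lower on average but not called. Creb1, on chromosome 1 (64532645 to 64604548), measured 33.7, 38.5 and 42.7 CPM in the Crebl2 siRNA libraries and 40.1, 40.1 and 42.0 CPM in the Luc siRNA libraries, which lay inside that range. Its log2 fold change was -0.09 (95% interval -0.25 to 0.07, edgeR adjusted p = 0.384). Of its 6 counted transcripts, all counts fell on Creb1-202, whose 8364 bases include 3291 of its own. The others have at most 196 such bases and 0 counts, so the value of Creb1 is read from that transcript alone. Atf1, on chromosome 15 (100227819 to 100261244), measured 38.02, 39.3 and 43.8 CPM in the Crebl2 siRNA libraries and 45.8, 44.1 and 41.7 CPM in the Luc siRNA libraries, with overlap by 1 library of each group. Its log2 fold change was -0.12 (95% interval -0.26 to 0.02; edgeR adjusted p = 0.174). Without Crebl2 siRNA replicate 3 both were called lower, Creb1 at -0.17 (adjusted p = 0.0484) and Atf1 at -0.18 (adjusted p = 0.0249), and the count of lowered members was 5 instead of 3.

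Crem, which makes both activators and the cAMP-induced repressor ICER from alternative starts, could not be assessed. Of its 23 counted transcripts on chromosome 18 (3266048 to 3337748), 3 held any counts, 20 in all over the 6 libraries. The transcript with the most has 306 bases of its own. The Crebl2 siRNA libraries held 9 counts and the Luc siRNA libraries 11, a ratio of 0.819 (95% exact binomial interval 0.300 to 2.17). Reads on exons that its transcripts share were apparently not counted, so these numbers say nothing of ICER.

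Crtc2, the cAMP-regulated coactivator of Creb1 in liver, was not called either. It lies on chromosome 3 (90254163 to 90264125) and had 115, 109.8 and 97.8 CPM in the Crebl2 siRNA libraries, against 109, 110.3 and 111 CPM in the Luc siRNA libraries. The Crebl2 siRNA libraries spread widely around the tightly grouped controls. The log2 fold change was -0.03 (95% interval -0.16 to 0.09; edgeR adjusted p = 0.702). Its paralogs Crtc1 and Crtc3, named after their values were seen, had log2 fold changes of -0.14 (adjusted p = 0.1001) and -0.12 (adjusted p = 0.103).

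**Figure D3:**
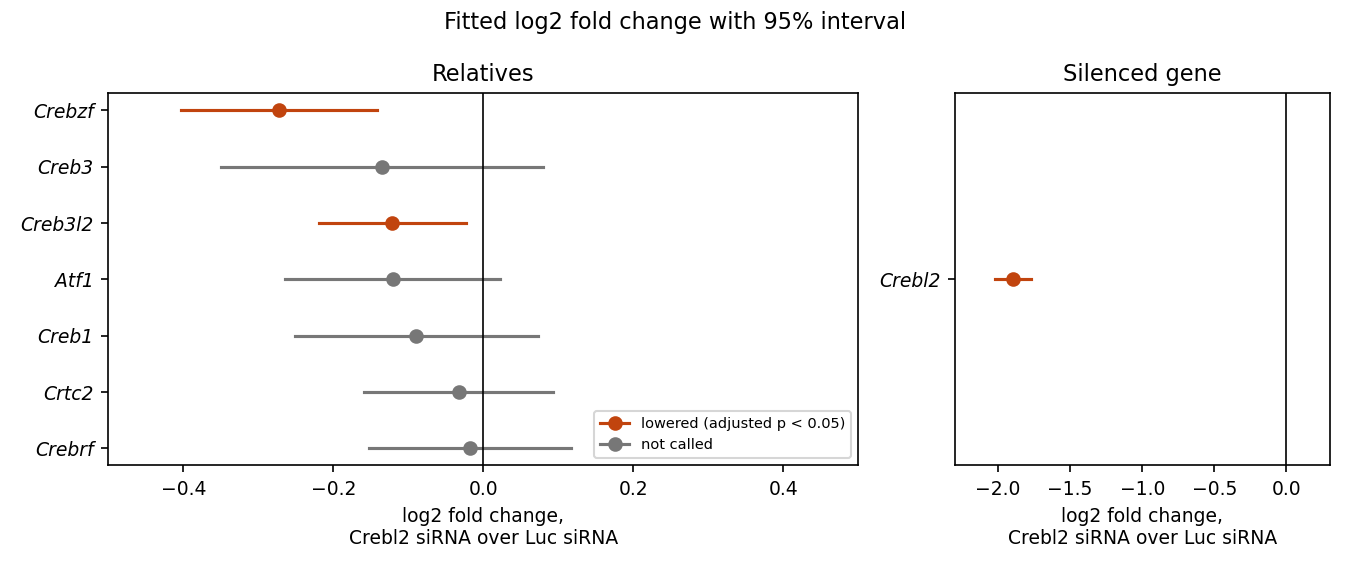
Log2 fold change (Crebl2 siRNA over Luc siRNA) of the 8 tested members, points with 95% intervals; relatives at the left, Crebl2 on its own axis at the right, orange where the adjusted p is under 0.05. Among relatives the intervals of Crebzf and Creb3l2 lie below 0, and the highest upper bound is 0.12, for Crebrf.

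The order of the Crebl2 siRNA libraries was alike in most tested members and reversed in the others. In 6 of the 8 tested members, Crebl2, Crebrf, Creb1, Creb3, Creb3l2 and Atf1, replicate 1 was the lowest and replicate 3 the highest of the Crebl2 siRNA libraries, an order found in 23.6% of all tested genes. Crebzf and Crtc2 had the opposite order, found in 24.1%, and no other order was as common over all tested genes. These libraries also differed in mitochondrially encoded RNA, which took 2.23, 0.859 and 2.09% of counts in Crebl2 siRNA replicates 1, 2 and 3 and 2.31 to 2.52% in the Luc siRNA libraries. Without Crebl2 siRNA replicate 2, the library with the low share, Crebl2 had a log2 fold change of -1.88 and Crebzf of -0.27 (edgeR adjusted p = 0.0152). With mitochondrially encoded genes left out of all libraries, Crebzf again stood at -0.27 (adjusted p = 0.0023).

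Levels can be compared between genes only per length, here as CPM per kilobase of the bases that belong to the main transcript alone. On that scale Crebl2 had 10.1 ± 0.561 in Crebl2 siRNA cells, against 37.5 ± 0.284 in Luc siRNA cells (SD, n = 3 each). It was thereby the third of the 10 members with Luc siRNA, behind Creb3l2 at 49.1 ± 1.57 and Crtc2 at 40.1 ± 0.360, and the seventh with Crebl2 siRNA. The order of the Luc siRNA cells went on with Creb3 at 25.1, Atf1 at 18.6, Crebrf at 13.3, Creb1 at 12.4 and Crebzf at 11.1, and no neighbours in it overlapped between libraries. In Crebl2 siRNA cells the neighbours Crebrf and Creb1, at 13.2 and 11.6, overlapped, as did Creb1 and Crebl2.

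Because Crebl2 was silenced and Crebrf was not called, their ratio and the share of Crebl2 among the members restate that silencing. Pairing of the proteins was not measured. The ratio of Crebl2 to Crebrf on this scale was 0.800, 0.750 and 0.749 in the Crebl2 siRNA libraries and 2.73, 2.93 and 2.78 in the Luc siRNA libraries. Crebl2 made up 5.98 ± 0.218% of the summed scaled level of the 10 members with Crebl2 siRNA, against 18.1 ± 0.163% with Luc siRNA (SD, n = 3 each). The 9 relatives together summed to 155, 159 and 161 CPM per kilobase with Crebl2 siRNA, against 169.7, 169.7 and 170.7 with Luc siRNA. Their sum was thus lower in every Crebl2 siRNA library than in any Luc siRNA library. Such a separation, in one direction or the other, held for 48.8% of all tested genes. Creb3l2 and Crtc2 were the largest parts of the sum. Without Creb3l2, the most abundant, the sum was 113 ± 2.54 with Crebl2 siRNA and 121 ± 1.81 with Luc siRNA (SD, n = 3 each).

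**Figure D4:**
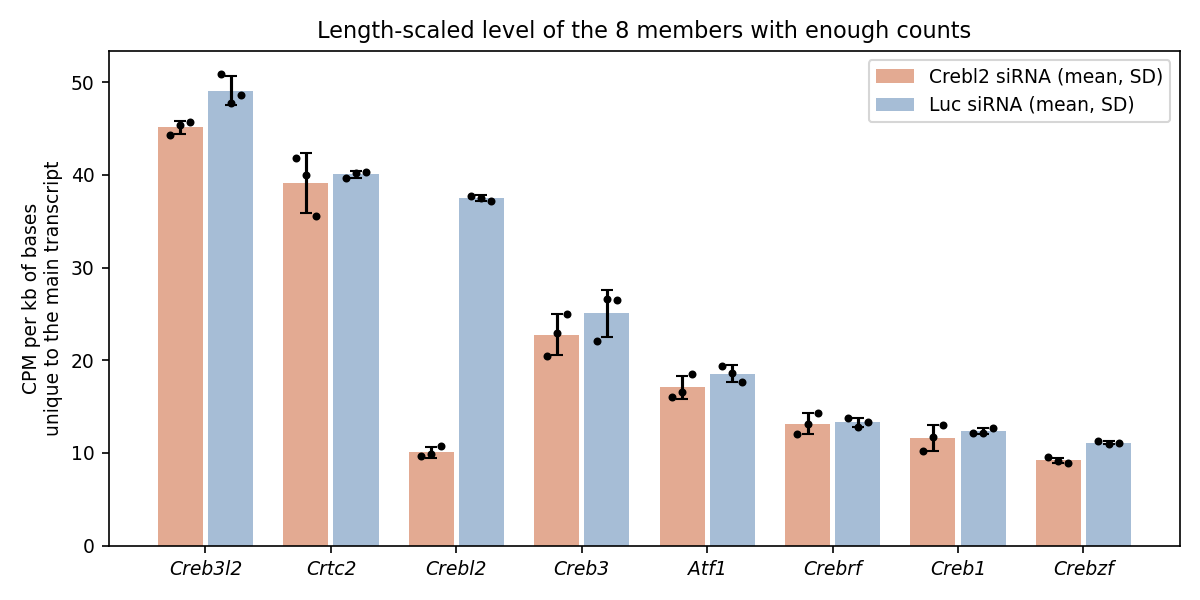
CPM per kilobase of bases unique to the main transcript for the 8 members with enough counts, ordered by their level with Luc siRNA; bars are means with SD (n = 3 per group), points are libraries, Crebl2 siRNA left of Luc siRNA. Crebl2 lies near Crebrf, Creb1 and Crebzf with Crebl2 siRNA and is the third highest with Luc siRNA.

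Promoters of relatives that did and did not fall are shown because they hold the core of the CRE, the site these factors bind. They are the 250 bases before the annotated start, 5′ to 3′ on the strand of the gene, from RefSeq on GRCm38.p6, for Crebzf (chr7:90442531-90442780, plus strand) and Creb3l2 (chr6:37442149-37442398, minus strand), the relatives called lower, and for Crebrf (chr17:26715400-26715649, plus strand), which was not called. Capitals mark the CRE core, TGACG, or CGTCA where it lies on the other strand.
Crebzf: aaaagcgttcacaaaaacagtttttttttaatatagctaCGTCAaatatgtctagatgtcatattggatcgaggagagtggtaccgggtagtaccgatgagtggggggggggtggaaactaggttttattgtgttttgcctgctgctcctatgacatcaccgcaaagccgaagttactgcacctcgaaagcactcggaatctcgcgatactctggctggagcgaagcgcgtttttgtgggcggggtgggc
Creb3l2: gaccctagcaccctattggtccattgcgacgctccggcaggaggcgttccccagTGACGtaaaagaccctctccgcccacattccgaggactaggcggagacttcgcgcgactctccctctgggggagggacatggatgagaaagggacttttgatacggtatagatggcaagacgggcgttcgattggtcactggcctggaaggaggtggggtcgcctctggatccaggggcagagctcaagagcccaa
Crebrf: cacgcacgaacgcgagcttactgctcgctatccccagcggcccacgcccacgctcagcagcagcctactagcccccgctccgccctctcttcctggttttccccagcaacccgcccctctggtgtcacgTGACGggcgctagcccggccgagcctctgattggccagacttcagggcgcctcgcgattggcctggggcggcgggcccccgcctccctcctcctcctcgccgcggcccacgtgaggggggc

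Each of the 3 holds 1 core, 211, 196 and 121 bases before the RefSeq start of Crebzf, Creb3l2 and Crebrf. RefSeq starts can differ from the gene coordinates given above. The Crebzf window runs past the gene start at 90442729, and the window searched for Creb3 (chr4:43562408-43562657) lies inside the gene. RefSeq promoters were matched for 7 of the 10 members, and 5 of those held a core, Atf1 and Creb3l3 being the others, while Crebl2, Crem and Crtc2 were not matched. For Creb3l3 the core lay in a window inside the gene (chr10:81092592-81092841). The window at the start of its counted transcript (chr10:81098873-81099122) held 0. The full palindrome TGACGTCA, which contains the core, was found in 0 of the 7. Both strands were searched, and among all 32851 promoter windows of that length 17.8% held the core and 1.55% the full site. A match is only a stretch of letters. Among genes tested here that had a matched promoter, 29.95% held the core in at least 1 of their promoters. Over genes tested here, the full site lay before 3.65% of raised, 3.29% of lowered and 2.76% of uncalled genes, and the core before 28.7%, 29.1% and 30.6%.

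A word of 7 bases, GAAATGT, which earlier results on these libraries had shown to be commoner in 3′ untranslated regions of lowered genes, was counted in the relatives. It was present in 29.2% of lowered, 11.9% of raised and 16.5% of uncalled genes searched, whose median region lengths were 1385, 986.5 and 995 bases. Crebzf holds it 2 times and Creb3l2 1 time, but Crebrf and Creb1, which were not called, hold it 2 times each. Atf1, Creb3 and Crtc2 have none, and the Crebl2 transcript has 1 outside that region. Its part in the falls was not tested.

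Among the other CREB and ATF factors some fell and none of those tested rose. Of 10 listed genes 6 were tested, 3 fell and 3 were not called, with a median log2 fold change of -0.10, against 20.1% lowered and 18.8% raised over all genes tested. The number raised was 0 by edgeR, also at an unadjusted p under 0.05, and 0 by DESeq2 and limma-voom. The stress factor Atf4, which drives amino acid genes, averaged 501 ± 6.89 CPM with Crebl2 siRNA and 613 ± 30.5 CPM with Luc siRNA (SD, n = 3 each; log2 fold change -0.29, edgeR adjusted p = 0.000164). Atf6, the membrane sensor of endoplasmic reticulum stress, averaged 161 ± 0.422 CPM with Crebl2 siRNA and 191 ± 9.32 CPM with Luc siRNA (log2 fold change -0.25, edgeR adjusted p = 0.000917). Atf7, an Atf2 relative activated by stress kinases, was called lower (log2 fold change -0.21, edgeR adjusted p = 0.0142), which was no longer called with library size scaling (adjusted p = 0.06), without Crebl2 siRNA replicate 1 (0.0554) or without Luc siRNA replicate 1 (0.0818).

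Coactivators and partners moved both ways. Of 10 listed genes 9 were tested, 2 rose and 2 fell, with a median of 0.08, where 38.9% of all genes tested were called. Hcfc1, the partner bound by Crebzf and Creb3, had 4.12, 4.18 and 3.82 CPM with Crebl2 siRNA, against 2.38, 3.05 and 2.66 CPM with Luc siRNA (log2 fold change 0.58, edgeR adjusted p = 0.00435), on 135 bases of its own. The acetyltransferase Ep300 was called higher (log2 fold change 0.18, edgeR adjusted p = 0.045) that was lost without Crebl2 siRNA replicate 2 (0.213), without Luc siRNA replicate 2 (0.246) or 3 (0.136) and with a replicate term (0.0643), so that 1 gene of the list rose in each of these. Among factors of the unfolded protein response, the bZIP protein Ddit3 (CHOP) fell by 0.56 and Xbp1 by 0.20 on the log2 scale (edgeR adjusted p = 1.77e-05 and 0.00269).

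Regulators that act on Creb1 and Crtc2 changed both ways. Of 24 listed kinase and phosphatase genes 16 were tested, 2 rose, 7 fell and 7 were not called, with a median of -0.16, against 18.8% raised and 20.1% lowered over all genes tested. With library size scaling 3 rose and 4 fell, and 4 fell without Crebl2 siRNA replicate 2 or without Luc siRNA replicate 2. The calcineurin catalytic subunits listed, Ppp3ca and Ppp3cb, which dephosphorylate Crtc2, were both lower. Ppp3ca had 36.1, 38.3 and 40.9 CPM with Crebl2 siRNA, against 58.0, 54.4 and 57.0 CPM with Luc siRNA (log2 fold change -0.56, edgeR adjusted p = 3.17e-06), and Ppp3cb a log2 fold change of -0.52 (adjusted p = 0.000218). Regulatory subunits of protein kinase A went opposite ways. Prkar2a fell by 0.40 on the log2 scale (edgeR adjusted p = 1.34e-05), whereas Prkar1a rose to 10.2 ± 0.691 CPM with Crebl2 siRNA, against 5.83 ± 0.0876 CPM with Luc siRNA (SD, n = 3 each; log2 fold change 0.81, adjusted p = 1.00e-05). The Prkar1a transcript with the most counts has 257 bases of its own and none has more than 404, against 3822 for Prkar2a. The rise of Prkar1a is thus read from short stretches. The calcium-dependent kinase gene Camk2d rose from few reads, 45 counts over the Crebl2 siRNA libraries and 11 over the Luc siRNA libraries (log2 fold change 2.00, adjusted p = 0.00302). Catalytic subunits Prkaca and Prkacb, named after their values were seen, had log2 fold changes of -0.09 and -0.04 (edgeR adjusted p = 0.249 and 0.76).

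Genes that make or break down cAMP were likewise divided. Of 23 listed genes 10 were tested, 2 rose and 4 fell, with a median of -0.04, where 38.9% of all genes tested were called. With library size scaling, without Luc siRNA replicate 3, or with transcripts of the same version alone, 2 fell, and without Luc siRNA replicate 2, 1 rose. The phosphodiesterases Pde7a and Pde4a, which degrade cAMP, fell by 0.77 and 0.76 on the log2 scale (edgeR adjusted p = 0.000105 and 0.00022), while Pde3b, the form acted on by insulin signalling, rose by 0.30 (adjusted p = 0.0104). Its call was lost without Luc siRNA replicate 2 (adjusted p = 0.0651). Of the adenylyl cyclases, Adcy1 rose by 0.25 and Adcy6 fell by 0.16 on the log2 scale (edgeR adjusted p = 0.000592 and 0.018), the call of Adcy6 being lost with library size scaling (0.0829) and without Luc siRNA replicate 3 (0.0584).

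Of the classical cAMP and CREB responsive genes, 24 were listed and 17 tested. Among these 7 fell, 1 rose and 9 were not called, with a median of -0.09, against 20.1% lowered and 18.8% raised over all genes tested. The AP-1 gene Junb had 90.9, 91.2 and 86.3 CPM with Crebl2 siRNA, against 173, 177 and 178 CPM with Luc siRNA (log2 fold change -0.98, edgeR adjusted p = 5.93e-10). The phosphatase gene Dusp1 fell by 1.09 and the bZIP factor Cebpb by 0.46 on the log2 scale (adjusted p = 7.86e-09 and 4.95e-06). Tat, the tyrosine transaminase, was called higher from 90 counts with Crebl2 siRNA and 51 with Luc siRNA (log2 fold change 0.82, edgeR adjusted p = 0.04). That call was lost with DESeq2 (adjusted p = 0.0934) and without Crebl2 siRNA replicate 2 (0.0548) or 3 (0.18) and Luc siRNA replicate 1 (0.147) or 3 (0.110), which leaves 0 raised genes in the list. Sik1, a CREB target that restrains Crtc2 and was named after its values were seen, was not called (log2 fold change 0.04, edgeR adjusted p = 0.58). The gluconeogenic genes Pck1 and G6pc held 0 counts in every library, although 2661 and 2414 bases are their own.

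Targets and proteases of the Creb3 branch changed both ways. Of 12 listed genes 11 were tested, 4 rose and 4 fell, with a median of 0.06, against 18.8% raised and 20.1% lowered over all genes tested. Without Luc siRNA replicate 2, or without Luc siRNA replicate 3, 2 rose and 4 fell. Both coat genes known as Creb3l2 targets in mouse cartilage fell, and a link to the level of Creb3l2 was not tested. Sec23a had 9.81, 11.5 and 11.9 CPM with Crebl2 siRNA, against 24.0, 21.7 and 22.1 CPM with Luc siRNA (log2 fold change -1.03, edgeR adjusted p = 1.63e-07), and Sec24d a log2 fold change of -0.20 (adjusted p = 0.0026). The Sec23a paralog Sec23b rose by 0.16 and the chaperone cofactor Sdf2l1 by 0.46 on the log2 scale (edgeR adjusted p = 0.0101 and 0.000107), Sec23b losing its call without Luc siRNA replicate 3 (0.0703). Of the Golgi proteases that release these factors, Mbtps2 fell by 0.26 (adjusted p = 0.00325). Mbtps1 was called higher (log2 fold change 1.08, edgeR adjusted p = 0.0102) on 140 counts with Crebl2 siRNA and 66 with Luc siRNA, with overlapping groups. Its transcripts have at most 149 bases of their own. It was not called without Crebl2 siRNA replicate 3 (0.0631) or Luc siRNA replicate 2 (0.0601). Of 11 liver targets of CREBH only 3 held enough counts to be tested, 1 fell and 0 rose, and 0 rose at an unadjusted p under 0.05 or by DESeq2 or limma-voom. The one that fell was Insig2, which retains the sterol sensor Scap in the endoplasmic reticulum, by 0.84 on the log2 scale (edgeR adjusted p = 2.32e-08).

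**Figure D5:**
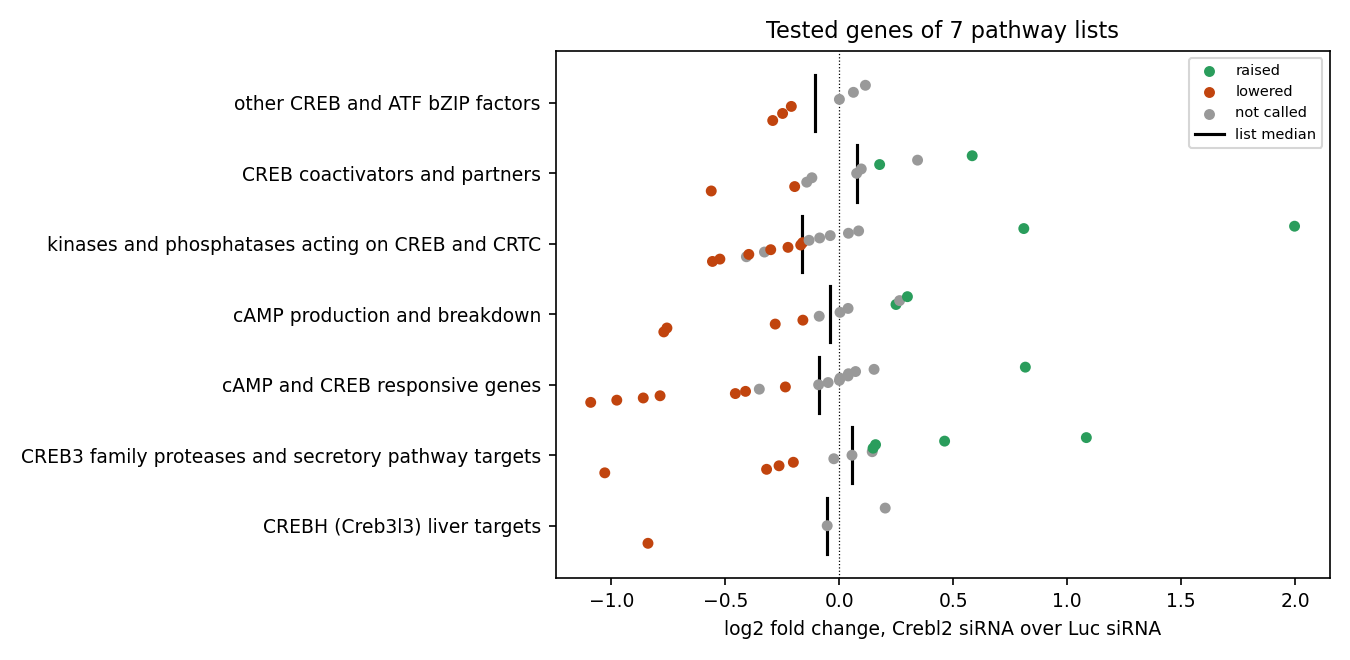
Log2 fold change (Crebl2 siRNA over Luc siRNA) of each tested gene in 7 pathway lists, coloured by its call, with the list median as a black line. List medians lie between -0.16 and 0.08, and raised and lowered genes occur together in 5 of the lists.

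Over all lists 110 genes were named and 68 tested, of which 11 rose and 28 fell, against 18.8% raised and 20.1% lowered over all genes tested. Without Luc siRNA replicate 2 or 3 the raised genes numbered 7. The 42 not tested are not thereby absent from the cells. Their best transcript had a median of 315 bases of its own, against 2260 for the tested genes, and 14 of the 42 had under 200. In these bulk samples less RNA per cell and fewer cells that express a gene cannot be told apart.

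The genes whose profile lay nearest to that of Crebl2 were sought among 6156 genes with a mean of at least 10 CPM, by the root mean square distance between log2 CPM profiles over the 6 libraries, each centred on its own mean. The 5 nearest were the cornified envelope gene Sprr1a (distance 0.113), the adhesion molecule Alcam (0.141), mesothelin (Msln, 0.150), the G protein subunit Gng12 (0.214) and the tendon bHLH factor Scx (0.250), against a median distance of 0.941. Their log2 fold changes were -1.80, -1.68, -2.06, -1.46 and -1.49, and the distance mostly measures the size of that fall.

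Marker genes bear on what the culture held. Of 9 hepatocyte markers 3 reached a mean of 1 CPM over the 6 libraries, Alb, Afp and Trf, and their list summed to 998 to 1077 CPM with Crebl2 siRNA and 995 to 1082 CPM with Luc siRNA. Within that sum Afp was higher in every Crebl2 siRNA library, at 351 to 361 CPM with Crebl2 siRNA against 277 to 279 CPM with Luc siRNA. Trf was lower in every one, at 128 to 141 CPM with Crebl2 siRNA against 159 to 188 CPM with Luc siRNA, on at most 376 bases of its own. Ttr and Apob were under 1 CPM although 1186 and 13934 bases are their own, and Hnf4a, at 0, has at most 6 such bases. Endothelial and leukocyte lists had 0 of 4 markers each at a mean of 1 CPM. Tek, Ptprc, Col3a1 and Pdgfrb were at 0 in every library. Transcripts of Tek and Pdgfrb have at most 48 and 71 bases of their own, so their 0 says little. Ptprc has at most 417 such bases and Col3a1 5423. Of 6 fibroblast markers 2 reached 1 CPM. Their list summed to 119 to 131 CPM with Crebl2 siRNA and 176 to 182 CPM with Luc siRNA, mostly Dcn. Transcripts of Dcn have at most 181 bases of their own. All 4 mesothelial and ductal markers reached 1 CPM, with sums of 199 to 225 CPM with Crebl2 siRNA and 228 to 253 CPM with Luc siRNA. Msln, at 15.5 to 16.8 CPM with Crebl2 siRNA against 56.5 to 75.5 CPM with Luc siRNA, and Upk3b were lower in every Crebl2 siRNA library. Krt19, at 120.5 to 151 CPM with Crebl2 siRNA against 108 to 118 CPM with Luc siRNA, and Epcam were higher in every one. Groups without overlap, in one direction or the other, were found for 48.8% of all tested genes. The part of these marker differences in the members' values was not tested.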

How the data were processed

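The deposited files hold raw read counts per Ensembl transcript, without normalisation by the authors, for 3 Crebl2 siRNA and 3 Luc siRNA libraries, with 27082572 to 29158489 counts each. The submitters' processing notes list Trim Galore, TopHat and HTSeq and the builds mm9 and GRCm38, with no version. The TruSeq Stranded Total RNA kit was used, per the labels' protocols. Of 58611 transcript rows, 58264 matched GENCODE M21 (GRCm38), and their counts were summed per gene. Reads shared by several transcripts were apparently not counted, so a count reflects bases that belong to 1 transcript alone.

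In R 4.3.3, edgeR 4.0.16 gave two-sided quasi-likelihood tests per gene after filterByExpr and TMM scaling. A call needs a Benjamini-Hochberg adjusted p under 0.05. CPM were computed with TMM-scaled totals, and SE and 95% intervals from the test statistic. Log2 CPM for profiles and the permutation test had 0.5 added. Intervals on counts cover counting error only, since reads carry no molecular identifiers. DESeq2 1.42.0 and voom in limma 3.58.1 were alternatives, beside other scalings, filters, a replicate block, transcript rows and each library left out. Replicates differed beyond sampling noise and were counted singly. The procedure was tested on simulated data.

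The members, lists and word were chosen with earlier results of these data known. Named genes were all members, up to 3 called genes per direction and list with the smallest p, and the 5 profiles nearest to Crebl2. Others are named as chosen after their values were seen.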

Additional observations from a re-analysis of the deposited data

How the results depend on the processing

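Across 16 alternative settings Crebl2 ran from -1.94 to -1.85 and Crebzf from -0.30 to -0.22 in log2 fold change, both lowered in all 16, and the raised relatives numbered 0 in each of the 15 that were counted by direction. Lowered members numbered 2 to 5 and called transcript rows of the members 2 to 5, each being 5 without Crebl2 siRNA replicate 3. Creb3l2 lost its call with relative log expression scaling (-0.12, adjusted p = 0.0501), library size scaling (-0.072), no filter (-0.13), a 1 CPM filter (-0.11), mitochondrially encoded genes left out (-0.12) and the replicate block (-0.12, adjusted p = 0.126), and ran from -0.14 to -0.10 with single libraries left out. Creb1 ran from -0.17 to -0.0023 and Atf1 from -0.18 to -0.077 with single libraries left out, each being called in 1 of the 6. Creb3, never called, ran from -0.22 without Luc siRNA replicate 1 to -0.059 without Crebl2 siRNA replicate 1. Crebrf turned to 0.032 with library size scaling and ran from -0.080 to 0.044 with single libraries left out, and Crtc2 turned to 0.016 and ran from -0.082 to 0.031, uncalled throughout. The cause was not tested. Raised pathway genes numbered 7 to 11 and lowered ones 24 to 28 with single libraries left out, 7 without Luc siRNA replicate 2 or 3.

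Same-numbered libraries did not deviate together (correlations of deviations from group means -0.246, -0.0917 and -0.154 over 8680 genes). Differently numbered ones gave -0.0582 to 0.182. No pairing by number was seen, though 3 libraries per group are few to judge it. With the replicate block 3983 genes were called, against 4518 without it, and 2 members, and apart from Creb3l2 it changed no call among the members. Genes called ranged from 3634 to 4661 over 15 settings. Creb3l3 and Crem held 30 and 20 counts in all, too few to test, and for Crem the bases of its own are few as well.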
